A study of Mus musculus with 2 samples.

Results

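The 10 genes described here encode proteins stored in the secondary (specific) and tertiary (gelatinase) granules of neutrophils: Ltf, Camp, Ngp, Lcn2, Mmp8, Mmp9, Fcnb, Olfm4, Pglyrp1 and Chi3l3. They were chosen by symbol, and all 10 were found among the 23235 rows of the deposited RNA sequencing table. The cells were lineage-depleted bone marrow progenitors of C57B6 mice that had received retroviruses for Flag-tagged Meis1 and for HA-tagged Hoxa9 joined to ER, an estrogen receptor domain that responds to a ligand. Both conditions carried both MIGR1 viruses, and both came from cells transformed in IL3 and 100 nM 4-hydroxytamoxifen (4OHT), the ligand that keeps Hoxa9-ER in the nucleus. After washing, cells of the 4OHT condition stayed in 100 nM 4OHT for 72 h, and cells of the EtOH condition were kept for 72 h in ethanol, its solvent, which leads to loss of nuclear Hoxa9-ER. The question was how expression changes when nuclear Hoxa9 is withdrawn. Each of the 2 samples stands for 2 replicates, and the table gives 1 value per gene and condition, so no value below has a replicate error and no test of this work across conditions was possible. The sources used here do not give the age of the mice or whether the cultures were clonal. The sample characteristics list the virus as Hoxa9 without ER, while the culture description gives Hoxa9-ER.

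Neutrophils build their granules in sequence as they mature. Azurophil granules, with myeloperoxidase and serine proteases, are filled at the promyelocyte stage, secondary granules with lactoferrin and cathelicidin at the myelocyte and metamyelocyte stages, and tertiary granules with gelatinase later. The proteins are made while their granule is being formed, so the RNAs of each granule class mark a window of maturation. C/EBP epsilon, the factor encoded by Cebpe, is required for secondary granules in mice.

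All 10 genes were higher 72 h after 4OHT withdrawal, but by very different amounts. Levels are FPKM, fragments scaled to transcript length and to library size, and "rose" and "fell" are used of rows that the authors' deposited table, a Cuffdiff output, gives a q-value (adjusted p-value) at or under 0.05. Fcnb, Chi3l3, Ngp, Camp, Ltf and Olfm4 rose between 274- and 404-fold from 5.75 FPKM or less. Pglyrp1, Lcn2 and Mmp8 rose between 2.38- and 3.52-fold, and Mmp9 rose 11.4-fold to a level that was still only 0.534 FPKM. The summed level of the 10 genes went from 399 to 4171 FPKM, or from 0.0733% to 0.705% of all FPKM. Because these are bulk samples, more cells of a maturing type and more RNA per cell cannot be told apart.

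The call itself has to be read against the table's filter. Of the 11865 rows tested in the authors' deposited table, 12.0% were called higher in EtOH, 10.5% lower and 22.5% in either direction. All 10 genes were also called at a q-value of 0.01 (9.41% of tested rows higher), and at 0.05 with a ratio of at least 1.5 (9.89%), from the authors' deposited table. No tested row had both values under 0.383 FPKM, so a row below that level in 4OHT was tested only where EtOH was higher. Ltf, Fcnb, Olfm4 and Mmp9 were such rows, and among the 374 tested rows of this kind 61.2% were called higher. The other 6 genes lay at or above that level in 4OHT, where 10.4% of tested rows were called higher. Both the calls and the ratios of these 4 genes are therefore conditioned on a high EtOH value. The median ratio of rows of this kind above 0 in both conditions was 5.31. The same limit holds for rises named or counted below that start under 0.383 FPKM, among them Mmp7, F730016J06Rik, Als2cl, Chi3l1, Cybb and Stfa2. The 12.0% set beside counts below mixes both kinds of row and is no background for such rises. Of 11780 tested rows above 0 in both conditions, 22, or 0.187%, were at least 100-fold higher in EtOH. Ltf, Fcnb and Olfm4 were among these 22, but the 0.187% covers both kinds of row. It is no background for these 3 genes, and the share among the 374 rows of their own kind is not given. Among the 11491 tested rows at or above 0.383 FPKM in 4OHT, 8, or 0.0696%, were at least 100-fold higher, and Ngp, Camp and Chi3l3 were 3 of the 8.

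**Figure D1:**
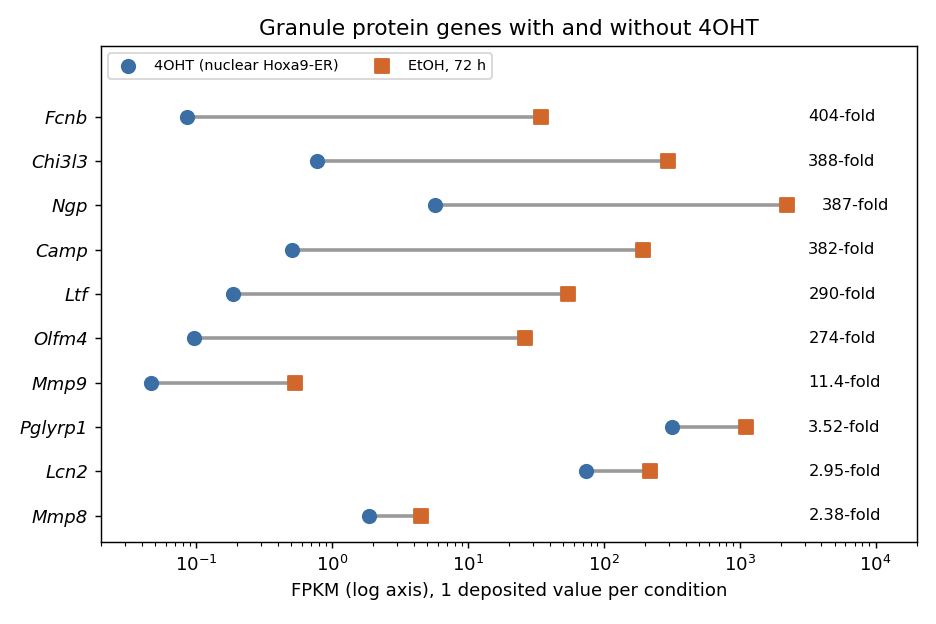
FPKM (log axis) of each of the 10 genes in 4OHT and EtOH, with the ratio of EtOH to 4OHT at the right. The 6 genes that rose over 100-fold start at or under 5.75 FPKM and end between 26.5 and 2225 FPKM. Pglyrp1 and Lcn2 stand at 316 and 73.7 FPKM in 4OHT.

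Promoter sequences are shown for the genes that hold the C/EBP string TTGCNNAA, since C/EBP epsilon is the factor best known for this gene class. RefSeq promoter windows on GRCm38.p6, 250 bases before to 50 after the start site, were found for 9 of the 10 genes, Chi3l3 under its current symbol Chil3; Mmp9 was not matched. The string TTGCNNAA, read on both strands, occurred in 5 of the 9 windows and in 10.8% of all 32851 windows. The 250 bases before the start site are given 5′ to 3′ on the strand of the gene, with that string in capitals, for Ltf (chr9:111019042-111019291, plus strand), Ngp (chr9:110419558-110419807, plus), Fcnb (chr2:28084879-28085128, minus), Lcn2 (chr2:32387740-32387989, minus) and Mmp8 (chr9:7558179-7558428, plus).
Ltf: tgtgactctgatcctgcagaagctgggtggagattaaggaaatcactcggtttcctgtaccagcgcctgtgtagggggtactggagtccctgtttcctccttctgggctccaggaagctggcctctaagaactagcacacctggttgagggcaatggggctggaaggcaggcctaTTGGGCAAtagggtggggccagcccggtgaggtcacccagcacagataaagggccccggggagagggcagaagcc
Ngp: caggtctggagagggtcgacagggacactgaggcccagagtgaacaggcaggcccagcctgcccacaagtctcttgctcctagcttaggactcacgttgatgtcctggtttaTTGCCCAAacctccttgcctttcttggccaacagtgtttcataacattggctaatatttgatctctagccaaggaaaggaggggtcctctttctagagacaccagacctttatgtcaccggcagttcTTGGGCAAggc
Fcnb: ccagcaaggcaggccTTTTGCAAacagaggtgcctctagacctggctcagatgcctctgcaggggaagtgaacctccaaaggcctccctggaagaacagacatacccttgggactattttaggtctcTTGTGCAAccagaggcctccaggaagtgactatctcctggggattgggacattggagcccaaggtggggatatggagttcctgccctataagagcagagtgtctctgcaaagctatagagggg
Lcn2: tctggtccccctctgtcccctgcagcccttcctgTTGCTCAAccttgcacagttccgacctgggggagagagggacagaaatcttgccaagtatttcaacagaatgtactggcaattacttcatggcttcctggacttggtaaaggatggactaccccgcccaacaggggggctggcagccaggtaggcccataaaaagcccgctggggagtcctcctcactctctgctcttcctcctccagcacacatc
Mmp8: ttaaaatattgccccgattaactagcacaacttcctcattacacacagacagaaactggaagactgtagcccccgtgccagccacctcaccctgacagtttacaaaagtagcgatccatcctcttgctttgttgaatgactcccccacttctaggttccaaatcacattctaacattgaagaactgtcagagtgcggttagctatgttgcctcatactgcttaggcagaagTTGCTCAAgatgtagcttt

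With base -1 next to the start site, the matches began at -75 in Ltf, -138 and -11 in Ngp, -235 and -123 in Fcnb, -216 in Lcn2 and -19 in Mmp8. The related string TTNNGNAAT occurred in 3 windows, those of Ltf, Ngp and Chi3l3, and in 11.5% of all windows; in Ltf and Ngp it overlapped TTGCNNAA. The PU.1 string GAGGAA was in 5 of 9 windows (28.3% of all), and the short Hox string TTTAT in 8 of 9 (40.0% of all). The longer string TGATTTA, bound by Hox proteins with Meis or Pbx partners, was in none of the 9 and in 2.97% of all windows, and the Meis string TGACAG was in Mmp8 alone (19.2% of all). A C/EBP string was thus present both in windows of genes that rose over 100-fold (Ltf, Ngp, Fcnb and Chi3l3) and in windows of genes that rose under 4-fold (Lcn2, Mmp8), and neither C/EBP string was in the windows of Camp, Olfm4 and Pglyrp1. These are matches of letters, not binding sites. For completeness, the remaining strings were found in 8 of 9 windows for Myb (AACNG, 80.3% of all), 6 for the E box (CANNTG, 72.3%), 3 for Gfi1 (AATCA, 37.0%), 1 for Runx (TGTGGT, 16.8%) and 0 for AP-1 (TGANTCA, 7.81%).

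The classical secondary granule genes Ngp, Camp and Ltf lie near each other on chromosome 9 and rose together. Ngp, which encodes neutrophilic granule protein, a relative of the cathelicidins, lies at 110322312 to 110325516 (mm9) and went from 5.75 to 2225 FPKM. That was the largest log2 change of all tested rows, 8.37 on the scale log2((FPKM EtOH + 1)/(FPKM 4OHT + 1)), which is used for all log2 changes here and understates those of low genes. Camp, the gene of the antimicrobial cathelicidin, at 109749891 to 109751970, went from 0.507 to 194 FPKM (log2 change 7.01). Ltf, the gene of lactoferrin, an iron-binding protein of the transferrin family, at 110921796 to 110945270, went from 0.189 to 54.8 FPKM (log2 change 5.55). The ratios of EtOH to 4OHT were 387 for Ngp, 382 for Camp and 290 for Ltf, although their levels in 4OHT differed by over 10-fold. Their q-values were listed as 0 in the authors' deposited table, where the lowest q-value above 0 was 7.4e-15.

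The span from Camp to Ltf covers 1195 kb and holds 31 rows, of which 28 are not granule protein genes. Of these 28, 14 were tested, 2 rose, 1 fell and 11 did not pass, and their median log2 change over tested rows was -0.05. The 3 calls among 14 are near the 22.5% of all tested rows called in either direction. Als2cl, an exchange factor for small GTPases, went from 0.180 to 1.95 FPKM, and Nbeal2, required for the alpha granules of platelets, from 16.6 to 23.0 FPKM. Smarcc1, a chromatin remodelling subunit, went from 24.7 to 17.6 FPKM. Klhl18, whose locus starts 2.91 kb beyond Ngp, lay at 9.63 and 9.27 FPKM and did not pass.

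**Figure D2:**
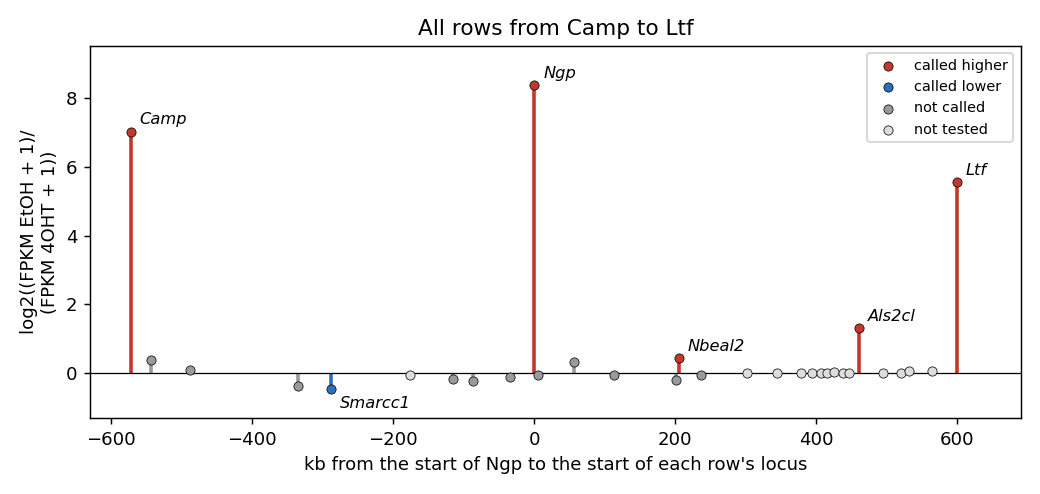
Log2 change, log2((FPKM EtOH + 1)/(FPKM 4OHT + 1)), of the 31 rows from Camp to Ltf, placed by distance in kb from the start of Ngp. Camp, Ngp and Ltf stand at 7.01, 8.37 and 5.55, and the tallest of the other rows is Als2cl at 1.32.

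Around all 10 genes, 47 other rows lay within 100 kb, and none of their loci overlapped a granule protein gene. Of the 27 tested, 3 rose, 1 fell and 23 did not pass, beside 12.0% of all tested rows called higher and 10.5% lower. The median log2 change of the 27 was 0.06, close to the -0.05 of all tested rows. The rises were in F730016J06Rik, 36.7 kb from Fcnb, from 0.00766 to 1.18 FPKM, in the chemerin-binding receptor gene Ccrl2, 12.1 kb from Ltf, from 2.70 to 4.59 FPKM, and in Lrrfip2, also beside Ltf, from 10.3 to 19.9 FPKM. Psg17, a pregnancy-specific glycoprotein gene 63.1 kb from Pglyrp1, fell from 6.36 to 1.65 FPKM. Chi3l4, the nearest relative of Chi3l3 and its neighbour, was listed at 0 in 4OHT and lay at 0.117 FPKM in EtOH.

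Lcn2 and Pglyrp1, both antibacterial, were the genes of the set that the cells already expressed strongly in 4OHT. Pglyrp1, which encodes a peptidoglycan recognition protein that binds bacterial cell walls, went from 316 to 1114 FPKM (chromosome 7, 19470039 to 19475787, mm9; log2 change 1.81). Lcn2, the gene of lipocalin 2 (NGAL), which sequesters bacterial iron-carrying siderophores, went from 73.7 to 218 FPKM (chromosome 2, 32240157 to 32243259; log2 change 1.55). In 4OHT these 2 genes stood at percentiles 97.9 and 90.4 of all tested rows. They held 97.7% of the summed FPKM of the 10 genes in 4OHT and 31.9% in EtOH. Ngp alone went from 1.44% to 53.4% of that sum, so the order of the genes changed as well as their total: Pglyrp1, Lcn2 and Ngp led in 4OHT, and Ngp, Pglyrp1 and Chi3l3 in EtOH. With 1 value per condition, it is not known which neighbours in either order differ beyond replicate spread.

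Fcnb, Olfm4 and Chi3l3 rose from under 1 FPKM. Fcnb, the gene of ficolin B, a lectin that recognises acetylated sugars and can start the lectin pathway of complement, went from 0.0861 to 34.8 FPKM (chromosome 2, 27931999 to 27940398; log2 change 5.04), at 404-fold the largest ratio of the 10 genes. Its relative Fcna lay at 0.0160 and 0.0889 FPKM and was not tested. Olfm4, the gene of olfactomedin 4, a glycoprotein found in a subset of neutrophils, went from 0.0967 to 26.5 FPKM (chromosome 14, 80400109 to 80421737; log2 change 4.65). Chi3l3, the gene of the chitinase-like lectin Ym1, went from 0.772 to 299 FPKM (chromosome 3, 105950472 to 105970482; log2 change 7.40). Of the 50-base words of Chi3l3 transcripts 26.9% also occur in transcripts of other genes, most often Chil4, the current symbol of Chi3l4, so part of its reads could not be assigned with certainty. Chi3l4 itself was near 0 in both conditions. For the other 9 genes at most 3.55% of words were shared.

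The metalloprotease genes had the lowest EtOH levels of the set and its smallest log2 changes with a pseudocount of 1, although the ratio of Mmp9 was above those of Pglyrp1 and Lcn2. Mmp8, neutrophil collagenase, went from 1.89 to 4.51 FPKM (chromosome 9, 7558429 to 7568486; log2 change 0.93), q-value 3.16e-05 in the authors' deposited table. Mmp9, gelatinase B, the marker enzyme of tertiary granules, went from 0.0467 to 0.534 FPKM (chromosome 2, 164773751 to 164781346; log2 change 0.55), q-value 0.000248 in the authors' deposited table. Mmp9 was the only one of the 10 genes under 1 FPKM in both conditions, and in EtOH it stood at percentile 4.64 of tested rows. Ngp stood at percentile 99.7 in EtOH. Of the other genes of the matrix metalloproteases, Mmp12 rose from 1.97 to 7.32 FPKM, Mmp13 from 1.01 to 2.23 FPKM and Mmp7 from a listed 0 to 0.560 FPKM. Mmp27, the neighbour of Mmp8, lay at 0.973 and 0.745 FPKM and did not pass.

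The low values in 4OHT rest on few fragments. Among 188 genes with 1 annotated transcript in GENCODE M21, FPKM times transcript length clustered at a lowest step of 0.0220 FPKM kb in 4OHT, and among 174 such genes at 0.0236 in EtOH. If that step is 1 fragment, the 4OHT values stand for about 4.58 fragments of Fcnb, 6.74 of Mmp9, 12.3 of Olfm4, 17.5 of Camp, 23.5 of Ltf, 53.9 of Chi3l3 and 319 of Ngp. On that reading the ratios of Fcnb and Olfm4 rest on fewer fragments than that of Ngp. The step was read inside a fixed window, from 0.015 to 0.03, and the depth is otherwise unknown, so no counting interval is given.

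**Figure D3:**
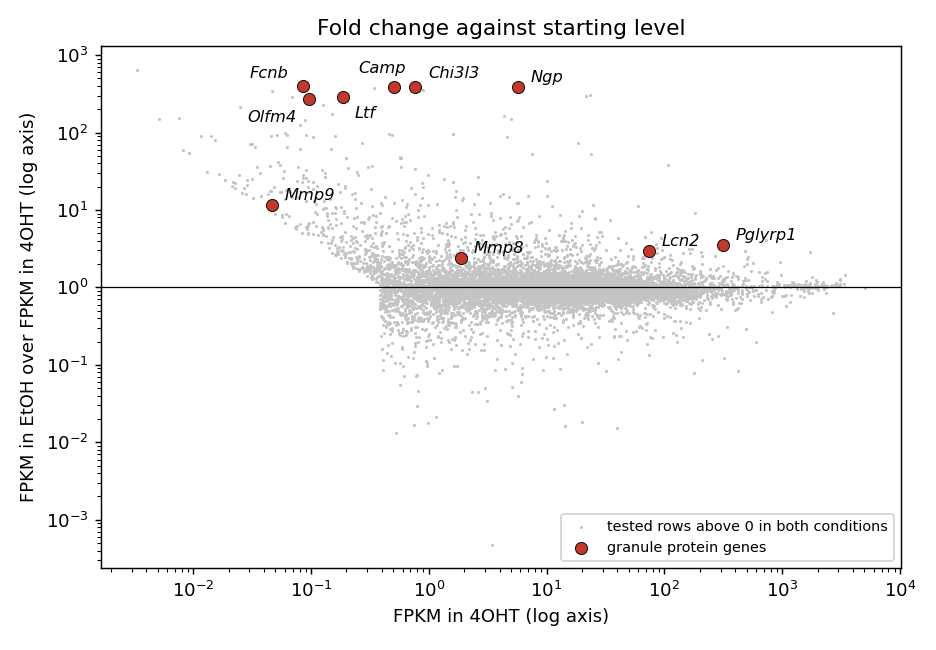
Ratio of EtOH to 4OHT (log axis) against FPKM in 4OHT (log axis) for the 11780 tested rows above 0 in both conditions (grey) and the 10 granule protein genes (red). The 6 highest of them lie between 274 and 404 across starting levels from 0.0861 to 5.75 FPKM, and the sloping left edge shows that low rows were tested only when EtOH was higher.

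For 9 of the genes, the called row with the most similar pair of FPKM values among 2659 rows is given, by distance on the log2(FPKM + 1) scale over the 2 conditions. Chi3l3 was nearest to Stfa2l1 (0.893 and 315 FPKM), Camp to Stfa2 (0.344 and 129 FPKM) and Ngp to Stfa1 (5.02 and 754 FPKM). All 3 are of the stefin A cluster of cysteine protease inhibitors. Their distances were 0.120, 0.607 and 1.57, so Stfa1 is only the least distant row and no close match of Ngp. The other distances lay between 0.0708 for Olfm4 and 0.669 for Pglyrp1. Fcnb was nearest to Chi3l1 (0.126 and 28.3 FPKM), a chitinase-like protein that is itself stored in secondary granules. Ltf was nearest to Itgb2l (0.485 and 45.3 FPKM), an integrin beta 2-like gene, and Olfm4 to Cdh1 (0.15 and 26.2 FPKM), the gene of E-cadherin. Mmp8 was nearest to Zbtb42 (2.04 and 4.50 FPKM). Lcn2 was nearest to Atp6v0c-ps2 (79.1 and 189 FPKM) and Pglyrp1 to Hmgn2 (503 and 1158 FPKM), a nucleosome-binding protein gene.

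Other cargo of the same granules mostly rose too. Of 29 listed genes, 22 were tested: 17 rose, 0 fell and 5 did not pass. Among all tested rows 12.0% were called higher and 10.5% lower. The median log2 change was 1.90 over the tested genes of the list and 0.87 over all 29. It was 4.85 for the 10 genes and -0.05 for all tested rows. The largest log2 changes were in 1100001G20Rik, now Wfdc21 and like Slpi a small antiprotease-like protein, from 1.61 to 156 FPKM (5.91), Cd177, a neutrophil surface glycoprotein held in secondary granules, from 0.461 to 44.3 FPKM (4.95), Chi3l1 (4.70) and arginase gene Arg1, from 2.60 to 42.4 FPKM (3.59). Cybb, the oxidase subunit carried in these granule membranes, rose from 0.244 to 7.47 FPKM, and its partner Cyba from 347 to 567 FPKM. The genes that did not pass were Tcn2, Qsox1, Ctsz, B2m and Hpse, with ratios between 0.817 for Ctsz and 1.35 for Qsox1. Of the 29, 7 were not tested, among them Mmp25, a membrane-bound metalloprotease, at 0.00598 and 0.383 FPKM, and the formyl peptide receptor gene Fpr1 at 0.0198 and 0.0354 FPKM. Cybb, Cyba, Mmp25 and Fpr1 were named after their values were seen.

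Azurophil granule genes, which are made earlier, changed in both directions. All 18 listed genes were tested: 8 rose, 4 fell and 6 did not pass. Among all tested rows 12.0% were called higher and 10.5% lower. The median log2 change of the 18 genes was 0.29. Nkg7, from 14.2 to 75.9 FPKM, the myeloperoxidase gene Mpo, from 186 to 918 FPKM, the elastase gene Elane, from 736 to 3047 FPKM, and the lysozyme gene Lyz1, from 2.02 to 9.0 FPKM, rose most. Ctsg fell from 2722 to 1291 FPKM, and the lysosomal enzyme genes Gusb, Gaa and Ctsc fell by 0.79, 0.72 and 0.38 on the log2 scale. The summed level of the list was 9703 FPKM in 4OHT and 12556 FPKM in EtOH. It was thus already high in 4OHT, when the granule protein genes of the set other than Lcn2 and Pglyrp1 summed to under 10 FPKM. With Lcn2 and Pglyrp1 the set summed to 399 FPKM in 4OHT. The list of other cargo of the same granules summed to 2046 FPKM in 4OHT. Its largest parts were B2m, Slpi and Cyba, at 633, 482 and 347 FPKM. The sum therefore says little about the other genes of that list in 4OHT. Whether the lists differ was not tested.

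**Figure D4:**
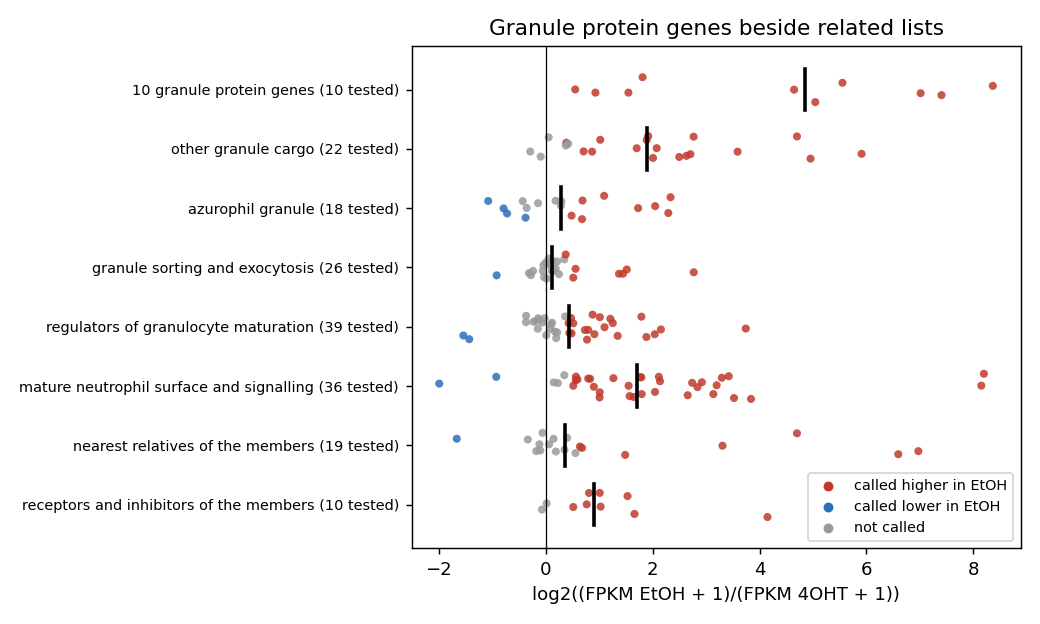
Log2 change of each tested gene, as log2((FPKM EtOH + 1)/(FPKM 4OHT + 1)), for the 10 granule protein genes and for 7 related lists, coloured by the authors' call, with a black bar at each median. The median over tested genes is 4.85 for the 10 genes, 1.90 for other granule cargo (0.87 with its 7 untested genes) and 0.29 for azurophil granule genes.

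Of 27 genes that sort and release granules, 26 were tested, of which 7 rose, 1 fell and 18 did not pass, beside 12.0% of all tested rows called higher and 10.5% lower. Their median log2 change was 0.12. Gca, which encodes grancalcin, a calcium-binding protein of neutrophil granules, rose from 4.89 to 39.2 FPKM. Lyst, whose loss gives the giant granules of Chediak-Higashi syndrome, rose from 3.34 to 11.4 FPKM, and the syntaxin genes Stx3 and Stx11 from 9.0 to 26.2 and from 4.26 to 12.6 FPKM. Srgn, the proteoglycan core that packs granule cargo, did not pass at 3073 and 3907 FPKM.

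Among 39 regulators of granulocyte maturation, all tested, 20 rose and 2 fell, and 17 did not pass. Over all tested rows 12.0% were called higher and 10.5% lower. The median log2 change of the 39 regulators was 0.43. Cebpe, named with the other C/EBP genes, Gfi1 and PU.1 for their known role, rose from 93.6 to 218 FPKM, 2.33-fold, at a q-value listed as 7.4e-15 by the authors' deposited table. Cebpb rose from 36.1 to 68.7 FPKM and Cebpd from 9.01 to 22.9 FPKM, while Cebpa, at 99.7 and 116 FPKM, did not pass. Gfi1, a repressor needed for neutrophil development, rose from 64.0 to 118 FPKM, and the PU.1 gene, listed as Sfpi1, from 77.5 to 167 FPKM. The largest rises were in Id2, from 4.25 to 69.3 FPKM, Gata1, an erythroid and eosinophil factor, from 1.60 to 10.6 FPKM, Klf5, from 0.666 to 5.85 FPKM, and the cytokine signalling inhibitor Socs3, from 2.71 to 12.7 FPKM. Irf8, a monocyte factor, fell from 4.09 to 0.751 FPKM and Lmo2, a stem cell factor, from 136 to 49.9 FPKM. The changes of these factor genes were thus smaller in ratio than those of Ngp, Camp, Ltf, Fcnb, Olfm4 and Chi3l3.

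Surface and signalling genes of mature neutrophils rose in most cases: 31 of 36 tested rose and 2 fell. The other 3, among them the selectin ligand gene Selplg and the Fc receptor gene Fcgr4, did not pass. The median log2 change was 1.70 over the 36 tested and 1.57 over all 39. Over all tested rows 12.0% were called higher and 10.5% lower. The calprotectin genes S100a8 and S100a9 rose 306- and 297-fold, between the ratios of Ltf (290) and Camp (382), and their levels in 4OHT were already 23.4 and 21.5 FPKM. The interferon-induced membrane gene Ifitm6 rose from 1.59 to 36.1 FPKM and the cytokine gene Il1b from 1.70 to 30.0 FPKM. The C-type lectin genes Clec4e and Clec4d fell by 1.99 and 0.93 on the log2 scale.

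Most relatives of the 10 genes were not tested. Of 47 matched rows 28 were not tested, and of the 19 tested 7 rose and 1 fell. The median log2 change was 0.35 over the 19 tested and 0.01 over all 47. Over all tested rows 12.0% were called higher and 10.5% lower. Besides Chi3l1 and the metalloprotease genes above, the stefins Stfa1 and Stfa2, which share the cystatin fold with the cathelicidin propiece, and Olfml2b, an olfactomedin-like gene, from 1.97 to 28.4 FPKM, rose. Of the stefins 22.5% and 15.9% of words are shared with other genes. Trf, the transferrin gene and relative of Ltf, fell from 60.8 to 18.5 FPKM. Other genes share 59.4% of its words. Pglyrp2, a peptidoglycan amidase, did not pass at 5.80 and 5.53 FPKM.

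Receptors and inhibitors of the granule proteins were measured in part: of 22 genes 10 were tested, and 8 of these rose. Masp2, a protease of the lectin pathway, and the transferrin receptor gene Tfrc, at 108 and 109 FPKM, did not pass. The median log2 change was 0.91 over the 10 tested and 0.06 over all 22. Over all tested rows 12.0% were called higher and 10.5% lower. Slc40a1, the iron exporter ferroportin, rose from 0.572 to 26.9 FPKM, and Timp2, an inhibitor of metalloproteases, from 1.55 to 7.06 FPKM. Cd14, a receptor for bacterial lipopolysaccharide, rose from 5.29 to 17.2 FPKM and Cd44, a docking receptor for Mmp9, from 22.2 to 46.3 FPKM. Trem1, a receptor of Pglyrp1, rose from 5.59 to 12.3 FPKM. The lipocalin 2 receptor gene Slc22a17 lay at 0.318 and 0.146 FPKM and Timp1 at 0.0277 and 0.124 FPKM, and neither was tested.

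Markers of other granulocytes rose with the granule protein genes. Beside the marker counts below, 12.0% of all tested rows were called higher and 10.5% lower. Some of the counted rises began under 0.383 FPKM in 4OHT, where 61.2% of tested rows were called higher. These were Retnlg (0.147 FPKM), Ccr3 (0.0613 FPKM), Csf1r (0.347 FPKM), Mrc1 (0.0839 FPKM), C1qb (0.194 FPKM) and Klf1 (0.310 FPKM). The 7 neutrophil markers outside the set all rose, and their summed level went from 153 to 13866 FPKM. In EtOH S100a8 and S100a9 alone were 7149 and 6386 FPKM of that sum, and in 4OHT Cebpe alone was 93.6 FPKM. Of 8 eosinophil markers all but the receptor gene Il5ra, at 0.478 and 0.448 FPKM, rose. Their sum went from 143 to 4765 FPKM, of which Prg2 alone was 108 and 4117 FPKM. Of 8 basophil and mast cell markers 7 rose, with a sum from 1211 to 4685 FPKM, while Mcpt4 was listed at 0 in 4OHT. Of 9 monocyte and macrophage markers 5 rose (Csf1r, Mrc1, Ccr2, C1qb and Vcan) and Emr1 fell, and the sum went from 217 to 144 FPKM, of which Emr1 alone was 202 and 102 FPKM. Lymphoid markers summed to 0.0535 and 0.279 FPKM, with Cd3e and Cd3g listed at 0 in both conditions. Erythroid and megakaryocyte markers went from 300.2 to 167 FPKM in sum, where 1 of 7 rose and 3 fell, among them Pf4, and stromal, endothelial and epithelial markers from 244 to 237 FPKM, nearly all of it Pecam1. Of 7 progenitor markers, checked against the label of the cells, none was at 0; 3 fell (Cd34, Flt3 and Sox4), 2 rose (Gata2 and Prom1) and 2 did not pass. The part of these cell types in the rises of the granule protein genes was not tested.

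Over the whole table, Hoxa9 rose from 476 to 892 FPKM (q-value 2.03e-05, the authors' deposited table). Meis1 rose from 242 to 418 FPKM (q-value 9.32e-05, the authors' deposited table). The viruses carry both genes too, and RNA does not show where the fusion protein is. These values therefore check neither the withdrawal nor the labels. The FPKM values do not give read totals, and 0 FPKM was listed for 8015 rows in 4OHT and for 7818 in EtOH.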

How the data were processed

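RNA of 2 samples, 4OHT and EtOH, each titled as replicates 1 and 2, had been sequenced from TruSeq libraries, per the labels' protocols. Cuffdiff 2.0.2, Bowtie2 2.0.0.7, CASAVA 1.8.2 and the build mm9 are named per the submitters' processing notes. The sources used here do not give the annotation, the strand setting or how libraries were scaled. Per the file headers, the authors deposited 1 FPKM value per gene and condition, which is relative to the whole library. The authors also deposited a p-value and a q-value per row, and these are the only test used; how it treated the replicates is not stated.

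From the FPKM values, ratios and log2((FPKM EtOH + 1)/(FPKM 4OHT + 1)) were computed (Python 3.11.15, pandas 2.3.3). The 10 genes and all lists were chosen with earlier results of these data known, and the progenitor marker list was added after the values were seen. Named in each list were the 4 called genes with the largest log2 change and those that fell; others are named after their values were seen. Rows within 100 kb and shared 50-base words (GENCODE M21) were counted. Coordinates are mm9 as deposited, with starts counted from 1, and GRCm38.p6 for promoters. The steps were tested on simulated data. Protein sequences were not used here, and some results are not reported here. Alternatives were other pseudocounts, scalings, filters and call rules.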

Additional observations from a re-analysis of the deposited data

How the results depend on the processing

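All 10 granule protein genes kept their direction under each alternative tried, and 0 of the 108 called entries of the related lists turned with either scaling. This outcome was fixed in advance and is no check of the directions. A pseudocount added to both values cannot change a direction. The scalings multiplied EtOH by only 0.921 and 1.05, less than the ratios of the called rows. All 10 were also called at q of at most 0.01 and with a ratio of at least 1.5 in the authors' deposited table, where 9.41% and 9.89% of tested rows were called higher, and 9 were called once rows under 1 FPKM in both conditions, Mmp9 among them, were left out. The median log2 change of 4.85 was 7.32 with a pseudocount of 0.1, 2.80 with 5, 4.73 after both conditions were brought to an equal FPKM sum, 4.91 with EtOH scaled to a median ratio of 1 and 5.04 over genes of at least 1 FPKM. Without the 10 most abundant other rows their share of all FPKM was 0.0781% in 4OHT and 0.766% in EtOH. Counts called in the 7 related lists stayed within 1.5 times under both other call rules. Leaving out a replicate could not be done. No paired analysis was possible because the table gives 1 value per condition for both replicates. Low values in 4OHT limit the ratios of Fcnb, Mmp9 and Olfm4 most.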
